A study of Homo sapiens with 8 samples.

Results

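The RAF and MAP kinases described here are ARAF, BRAF, MAPK3, MAPK8, MAPK9, MAPK12, MAPK13 and MAPK14, a set named for carrying minor, U12-type introns. They were taken by symbol from the deposited count table. All 8 were found among 25435 symbols, and all 8 were among the 14898 genes that had enough counts to be tested. The data are messenger RNA libraries of SET-2, a human megakaryoblastic cell line, established from a leukemia that had followed essential thrombocythemia. The line carries an activating JAK2 mutation, which knockout and control libraries share. Cells had been transduced with a lentiviral vector carrying a guide RNA against ZRSR2 (genotype ZRSR2 KO) or a non-targeting guide (genotype ZRSR2 wildtype). Guides 1 and 2 of each genotype were run in experiment 1 and again in experiment 2, which gives 8 libraries, 2 for each combination of genotype and experiment. RNA was taken on day 20 after transduction for the first biological replicate and on day 25 for the second, and reading the experiment number as that replicate number is an assumption. The labels do not say whether the cells were clones, and a repeat within an experiment is another guide, so p-values measure the spread between these libraries.

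RAF kinases are the first step of the cascade that receives the signal from active RAS. They phosphorylate the MAP2K kinases, which phosphorylate the extracellular signal-regulated kinases (ERK). The c-Jun N-terminal kinases (JNK) and the p38 kinases are reached through parallel cascades that respond to stress and cytokines. JAK2 signalling in megakaryocytic cells feeds the ERK cascade. Most introns are removed by the major spliceosome, and a small class is removed by the minor spliceosome, which reads a strongly conserved start of the intron and a conserved branch site. ZRSR2 takes part in recognising the end of such introns. The deposited counts are per gene and do not separate spliced from unspliced transcripts.

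The motif of minor introns was looked for in the kinases themselves. No genome sequence was used, so an intron was read only where a transcript of GENCODE 29 (GRCh38) covers its ends. The search asked for an intron starting with GTATCCTT or ATATCCTT allowing 1 mismatch. The branch motif TCCTTAAC, allowing 2 mismatches, had to end 5 to 40 bases ahead of the intron's end. Only the strand of the gene was read, and the motifs cannot overlap. Introns with both motifs were found in BRAF, MAPK9 and MAPK12, and the first bases alone could be read in MAPK14. The match in MAPK12 was the loosest, with as many mismatches in each motif as the search allowed. The sequences of MAPK9 and MAPK14 are shown because such introns are the feature that joins these kinases. Each is given 5′ to 3′, the first 20 bases and, where readable, the last 50, with the start motif and the branch motif in capitals.
MAPK9 intron 7, first bases: GTATCCTTccccgcgacctt
MAPK9 intron 7, last bases: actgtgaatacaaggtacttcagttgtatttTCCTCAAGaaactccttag
MAPK14 intron 8, first bases: GTATCCTTtaaaaagttttg

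The start motif had 0 mismatches in MAPK9 and MAPK14. The branch motif had 2 mismatches in MAPK9 and ended 11 bases before the end of the intron. The MAPK9 intron (chr5:180242756-180247438, minus strand) is intron 7 of 11 of the principal transcript, with a length of 4683 bases. The MAPK14 intron (chr6:36076609-36100187, plus strand) is intron 8 of 11 with 23579 bases, and the annotation also holds a shorter form that starts at the same base. In both kinases the intron interrupts the reading frame at nearly the same place: it follows 229 complete codons in MAPK9 and 227 in MAPK14, and in both it lies after the first base of the next codon.

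For background, both ends could be read in 32156 of 367467 annotated introns, and both motifs were found in 0.438% of those. By gene, both motifs were found in 119 of 9939 genes with an intron readable at both ends (1.2%). The first 8 bases could be read in 65636 introns. They matched exactly in 0.332% and with at most 1 mismatch in 0.756%. The first bases were readable in 5 of 18 introns of ARAF, 6 of 18 of MAPK3, 5 of 25 of MAPK8 and 2 of 14 of MAPK13, and the start motif was not among them. That says only that these letters are not in the introns that could be read.

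Depth and labels were checked first. Library totals ran from 31106042 to 71521173 expected counts, the highest in non-targeting guide 1 of experiment 2. Levels are given as CPM, counts per 1000000 counts after scaling of library sizes. ZRSR2 averaged 24.8 ± 4.99 CPM in knockout and 39.5 ± 1.34 CPM in control libraries (SD, n = 4 each), and the highest knockout library was below the lowest control. With guide 2 its log2 fold change against the controls was −0.92, and with guide 1 it was −0.45. Libraries separated by experiment: 58.2% of tested genes differed between experiments at an edgeR adjusted p under 0.05. Of 10 megakaryocyte markers 8 exceeded 1 CPM in some library, GP1BB was at 0 in all libraries and PPBP stayed under 1 CPM. ITGA2B, the platelet integrin alpha chain, was at 2085 to 2708 CPM. Summed erythroid markers were at 462 to 602 CPM, and of 5 monocyte and granulocyte markers LYZ alone passed 1 CPM. The summed lymphoid markers moved with the experiment, from 13.9 to 15.3 CPM in experiment 1 to 37.7 to 55.4 CPM in experiment 2, carried by CD79A and NKG7, while CD3E and CD3D stayed under 1 CPM and MS4A1 was at 0 throughout. Summed fibroblast markers were at 1.86 to 2.63 and 6.23 to 7.35 CPM. The summed lymphoid, fibroblast and erythroid markers were higher in every library of experiment 2, as MAPK3 and MAPK13 were. The megakaryocyte sums and the monocyte and granulocyte sums overlapped between experiments. The part of the marker levels in the rise of MAPK3 and MAPK13 was not tested.

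Knockout was compared with non-targeting to ask whether loss of a minor splicing factor moves the RNA of kinases that carry its introns. No kinase of the set passed the threshold: edgeR called 0 of 8, where it called 0% of all genes tested. Without adjustment 1 of 8 was under 0.05 (MAPK14), against 0.597% of all genes, which is 89 genes. Adding the experiment as a block, edgeR also called 0 of 8, as did DESeq2 with genotype alone and with the block, which called 4 and 31 genes in all (0.208% with the block). Without adjustment, DESeq2 with the block had 3 of 8 under 0.05 (MAPK12, MAPK13 and MAPK14), against 4.26% of all genes. With genotype alone, the lowest edgeR unadjusted p-values were those of MAPK14 (0.0437) and MAPK12 (0.0653), p38 kinases that moved in opposite directions. MAPK14 was lower in all 4 knockout libraries, the single kinase of 8 without overlap between genotypes (0.678% of all genes in either direction). Within each experiment MAPK12 was higher in knockout without overlap, and MAPK3 and MAPK14 were lower. Such a separation in the same direction in both experiments held for 5.73% of all genes. In the following paragraphs the values of each genotype are given in the order guide 1 and guide 2 of experiment 1, then guide 1 and guide 2 of experiment 2.

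**Figure D1:**
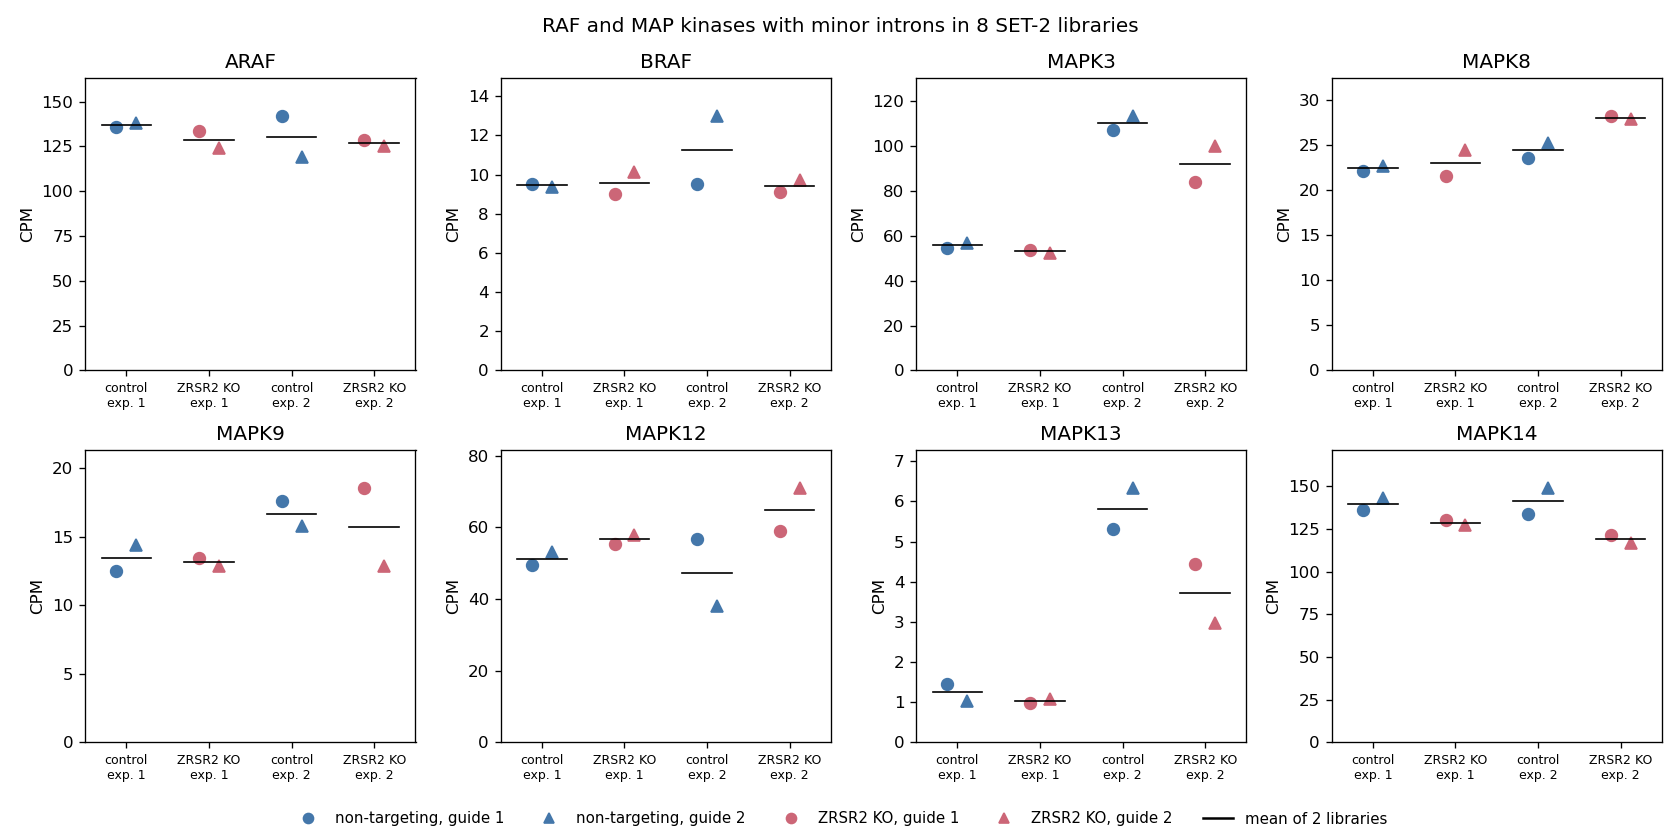
CPM of the 8 kinases in every library (y axis, from 0), by genotype and experiment (x axis). Circles are guide 1 and triangles guide 2 libraries, and bars are means of 2 libraries. MAPK3 and MAPK13 are higher in experiment 2 in all libraries, and MAPK14 is lower in each knockout library (116.7 to 130.0 CPM) than in each control library (133.8 to 148.6 CPM).

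ARAF encodes the RAF family member with the weakest kinase activity. It lies on chromosome X, from 47561100 to 47571920 on GRCh38, and the gene SYN1 overlaps it on the opposite strand. ARAF was at 133.6, 124.0, 128.7 and 125.0 CPM in knockout and at 135.9, 138.0, 141.7 and 119.1 CPM in control libraries. The genotypes overlapped, since the lowest value of all was a control, guide 2 of experiment 2. The knockout mean was 127.8 ± 4.36 CPM and the control mean 133.6 ± 10.01 CPM (SD, n = 4 each). Its log2 fold change was −0.06 (SE 0.08), and the 95% interval of −0.25 to 0.12 covers ratios of knockout to control from 0.84 to 1.09.

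BRAF encodes the RAF kinase with the highest basal activity and is often mutated in cancers (chromosome 7, 140719327 to 140924928). The genes NDUFB2 and RNU6-85P overlap it on the opposite strand. The level of BRAF was low, on 295 to 667 counts per library. Knockout libraries were at 9.01, 10.1, 9.10 and 9.70 CPM, and controls at 9.55, 9.39, 9.51 and 12.97 CPM. A single library stood apart, the control with guide 2 of experiment 2, and the other 7 lay between 9.01 and 10.1 CPM. The difference on the log2 scale was −0.13 (SE 0.14, 95% interval −0.46 to 0.20), and without that control library it was 0.01.

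MAPK3 encodes ERK1, which carries the output of the RAF cascade (chromosome 16, 30114105 to 30123506). Knockout libraries were at 53.8, 52.4, 84.1 and 99.97 CPM, and controls at 54.4, 57.0, 107.2 and 113.2 CPM. Over all libraries the genotypes overlapped, because experiment 2 was high in both. Within each experiment both knockout libraries lay below both controls, in experiment 1 by a narrow margin. Fitted log2 fold changes were −0.19 (SE 0.31) with genotype alone and −0.17 with the experiment as a block (SE 0.08, edgeR unadjusted p 0.0498, adjusted p 1). Without the control with guide 2 of experiment 2, the fit with genotype alone gave 0.01 and the block fit −0.12. Leaving it out makes the controls unequal between experiments, which the fit with genotype alone does not adjust for.

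The JNK kinases MAPK8 and MAPK9, which phosphorylate c-Jun, showed no common direction. MAPK8 (JNK1, chromosome 10, 48306639 to 48439360) was at 21.6, 24.5, 28.2 and 28.0 CPM in knockout and at 22.2, 22.75, 23.65 and 25.3 CPM in control libraries. Its log2 fold change was 0.12 (SE 0.11, 95% interval −0.14 to 0.39), and knockout libraries were above controls in experiment 2 and overlapped them in experiment 1. MAPK9 (JNK2, chromosome 5, 180233143 to 180292099) was at 13.4, 12.8, 18.5 and 12.8 CPM in knockout and at 12.5, 14.4, 17.6 and 15.75 CPM in control libraries. The genotypes overlapped in both experiments, and the log2 fold change was −0.07 (SE 0.17, 95% interval −0.45 to 0.31). The knockout library with guide 1 of experiment 2 stood apart from the other knockout libraries.

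Among the p38 kinases, MAPK14 encodes p38 alpha, the broadly expressed form (chromosome 6, 36027677 to 36111236). Its values were 130.0, 127.1, 121.1 and 116.7 CPM in knockout and at 135.8, 143.2, 133.8 and 148.6 CPM in control libraries. The knockout mean was 123.7 ± 5.97 CPM and the control mean 140.3 ± 6.82 CPM (SD, n = 4 each). All 4 knockout libraries lay below all 4 controls. Such a separation in the lower direction held for 0.376% of all genes tested. MAPK14 had a log2 fold change of −0.18 (SE 0.08), with a 95% interval of −0.36 to −0.01, an edgeR unadjusted p of 0.0437 and an adjusted p of 1. With the block the adjusted p was 0.94, and DESeq2 with the block gave 0.757.

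MAPK12 encodes p38 gamma, a form best known from muscle (chromosome 22, 50245450 to 50261825). Knockout libraries were at 55.4, 57.9, 58.9 and 70.8 CPM, and controls at 49.6, 53.0, 56.8 and 38.0 CPM. Within each experiment both knockout libraries lay above both controls, and over all libraries they overlapped by 1 control, guide 1 of experiment 2. The widest gap was between the guide 2 libraries of experiment 2, which held both the highest and the lowest value. Its log2 fold change was 0.30 (SE 0.14, 95% interval −0.02 to 0.62, edgeR adjusted p 1). It was 0.30 with the block and an edgeR unadjusted p of 0.0284, and with the block but without that low control it was 0.18. HDAC10 overlaps MAPK12 on the same strand, so reads could be split between them. HDAC10 was at 59.9 to 74.4 CPM in knockout and at 63.0 to 74.8 CPM in control libraries, which overlapped.

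MAPK13 encodes p38 delta, a form found mainly in epithelia and some leukocytes, and lies beside MAPK14 on chromosome 6 (36127809 to 36144524). Its level was the lowest of the set, on 34 to 372 counts per library. Knockout libraries were at 0.983, 1.08, 4.44 and 2.98 CPM, and controls at 1.46, 1.04, 5.30 and 6.32 CPM. The genotypes overlapped in experiment 1, and in experiment 2 both knockout libraries lay below both controls. The log2 fold change was −0.58 (SE 0.69, 95% interval −2.16 to 1.01), and −0.50 (SE 0.19, edgeR unadjusted p 0.0211, adjusted p 1) with the block. Leaving out 1 library moved the value with genotype alone from −1.08 (without knockout guide 1 of experiment 2) to −0.13 (without non-targeting guide 2 of experiment 2). With the block such fits gave −0.61 to −0.33. In the block fit the unadjusted p in edgeR was above 0.05 in 3 of 8 such fits: 0.0549 without non-targeting guide 1 of experiment 1, 0.0972 without knockout guide 2 of experiment 2 (log2 fold change −0.33) and 0.082 without non-targeting guide 2 of experiment 2. Counting error alone was up to 17.1% of a value for MAPK13, against at most 1.54% for ARAF and MAPK14.

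Across the set, 6 of 8 kinases had a negative log2 fold change, with a median of −0.096, where 51.3% of all genes tested were negative with a median of −0.003. Some other lists leaned the same way, with 0 genes past the threshold. Negative were 5 of 5 erythroid markers (median −0.097), 7 of 9 megakaryocyte markers tested (−0.088) and 8 of 10 MAP kinase phosphatases (−0.109). Others did not: 5 of 9 other RAF and MAP kinases were positive (median 0.030), and MAP3K kinases had 9 of each sign (−0.003). Of 23 RAS and RAF regulators and scaffolds tested, 14 were positive (0.030). The part of the marker levels in the values of the kinases was not tested. With the experiment as a block, 4 of 8 had an edgeR unadjusted p under 0.05 (MAPK3, MAPK12, MAPK13 and MAPK14), against 4.63% of all genes. That count was 2 or 3 in each of the 8 block fits that left out a library, against 2.94% to 7.91% of all genes. No kinase passed the threshold in them. MAPK14 kept an unadjusted p under 0.05 in 7 of those 8 fits, and without non-targeting guide 2 of experiment 1 its p was 0.0503.

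**Figure D2:**
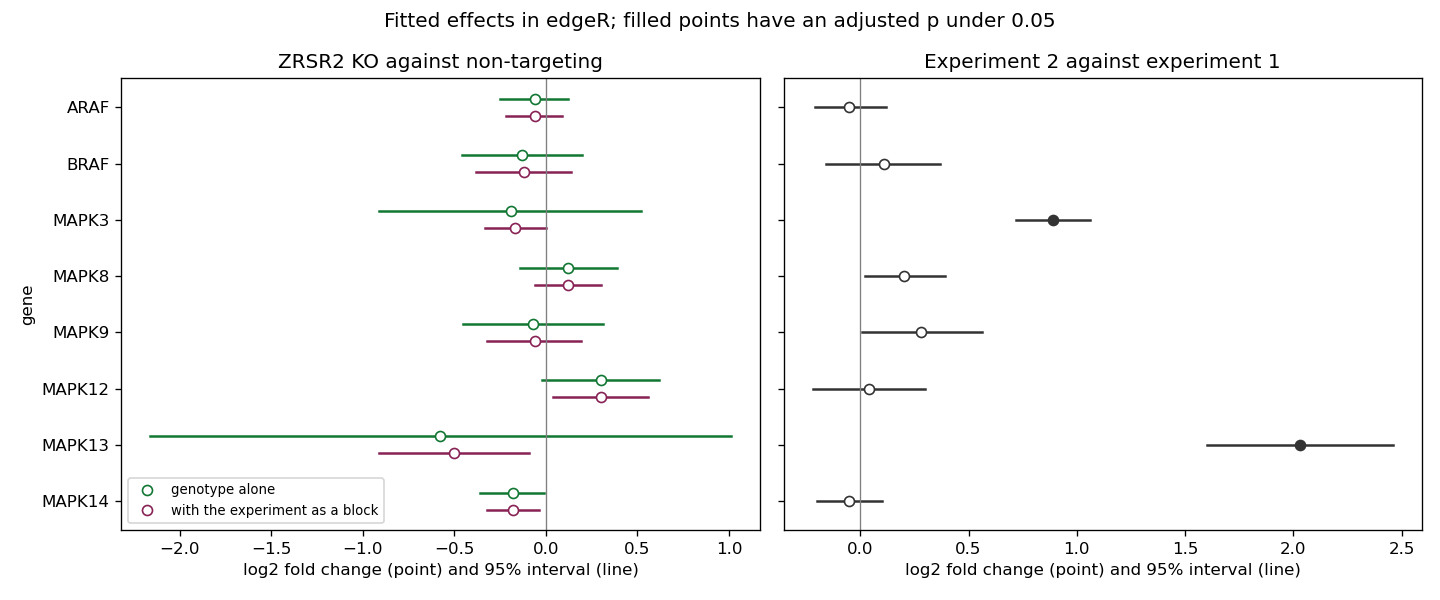
Log2 fold changes (points) with 95% intervals (lines) of the 8 kinases for ZRSR2 KO against non-targeting, with genotype alone and with the experiment as a block, and for experiment 2 against experiment 1. Filled points, MAPK3 at 0.89 and MAPK13 at 2.03 in the right panel, passed the threshold, and no point in the left panel did.

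The knockout effect was then set out within each experiment. In experiment 1 the log2 fold changes of the kinases lay between −0.26 (MAPK13) and 0.14 (MAPK12), and 0 of 8 had an edgeR unadjusted p under 0.05, against 2.05% of all genes. In experiment 2 they lay between −0.64 (MAPK13) and 0.45 (MAPK12). There 4 of 8 were under 0.05 without adjustment, again MAPK3, MAPK12, MAPK13 and MAPK14, against 4.33% of all genes. No kinase passed the adjusted threshold in either, where all genes gave 0% as well. The difference between the effects was tested directly and called 0 of 8, with 0 of 8 at an unadjusted p under 0.05 (1.66% of all genes) and intervals that covered 0 for each. For MAPK12 the difference was 0.31 (95% interval −0.22 to 0.83), and for MAPK13 −0.38 (−1.24 to 0.49).

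Groups of 2 libraries often separate. In experiment 1 the genotypes did not overlap for 4 of 8 kinases, against 36.4% of all genes, and in experiment 2 for 5 of 8, against 23.5%. MAPK3 and MAPK14 were lower and MAPK12 was higher without overlap in both experiments. A separation in the same direction in both was found for 3 of 8 kinases and for 5.73% of all genes.

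The guides against ZRSR2 were compared with the same 4 control libraries. With guide 1 the log2 fold changes of MAPK12, MAPK13 and MAPK14 were 0.21, −0.38 and −0.16. With guide 2 they were 0.38, −0.81 and −0.20. The direct test of guide 2 against guide 1 gave differences of 0.17 (95% interval −0.32 to 0.66), −0.42 (−2.87 to 2.02) and −0.04 (−0.32 to 0.24). BRAF and MAPK3 had the larger change with guide 1, at −0.19 and −0.27, against −0.06 and −0.12 with guide 2. ARAF (−0.03 and −0.10) and MAPK8 (0.09 and 0.16) had it with guide 2. ZRSR2 RNA was lower with guide 2 than with guide 1 (−0.47), which did not pass the threshold. A link between its level and the kinases was not tested. No kinase passed the threshold for either guide or for their difference, where all genes gave 0% in each, with 33, 98 and 58 genes at an edgeR unadjusted p under 0.05. MAPK9 had the widest spread between guides apart from MAPK13, at 0.08 with guide 1 and −0.23 with guide 2, and the difference of −0.32 had an interval of −0.85 to 0.22. With the block, guide 2 called 3 genes (0.0201%), among them ZRSR2 at an edgeR adjusted p of 0.0303 and 0 of 8 kinases. Without adjustment the block fit had 1 of 8 kinases under 0.05 with guide 1 (MAPK3), against 2.79% of all genes, and 3 of 8 with guide 2 (MAPK12, MAPK13 and MAPK14), against 4.89%. For guide 2 against guide 1 it had 0 of 8, against 2.73%, and the interval for MAPK13 narrowed to −0.87 to 0.32 around −0.27.

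Experiment 2 was compared with experiment 1 in the fit of genotype by experiment. MAPK3 and MAPK13 rose, and the other 6 kinases did not pass the threshold. That is 2 of 8 called, both higher, where 29.6% of all genes were called higher and 28.6% lower, so the share of the set is not above the background. Without adjustment 4 of 8 were under 0.05, against 62.9% of all genes, and the experiments did not overlap for 2 of 8, against 56%. MAPK3 rose from 54.4 ± 1.93 to 101.1 ± 12.5 CPM (SD, n = 4 each). On the log2 scale that is 0.89 (SE 0.08, edgeR adjusted p 6.61e-06). The 4 libraries of experiment 2 lay between 84.1 and 113.2 CPM and those of experiment 1 between 52.4 and 57.0 CPM, with no overlap. MAPK13 rose from 1.14 ± 0.215 to 4.76 ± 1.42 CPM, also with no overlap, and the fitted difference was 2.03 on the log2 scale (SE 0.20, edgeR adjusted p 1.24e-05).

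MAPK8 and MAPK9 lay near the threshold in this comparison. MAPK8 averaged 22.75 ± 1.24 CPM in the first and 26.3 ± 2.20 CPM in the second, which is 0.20 on the log2 scale (SE 0.08, edgeR adjusted p 0.0571). Its adjusted p was 0.0456 in the additive fit. MAPK9 averaged 13.3 ± 0.845 and 16.2 ± 2.51 CPM, a fitted difference of 0.28 (SE 0.12, edgeR adjusted p 0.0712), and without knockout guide 2 of experiment 2 it was 0.41 with an adjusted p of 0.00965. ARAF, BRAF, MAPK12 and MAPK14 had log2 fold changes of −0.05, 0.11, 0.04 and −0.05, with adjusted p-values of 0.468 to 0.779. The interval of MAPK14, −0.20 to 0.10, was far below that of MAPK13, its neighbour on chromosome 6. Over the set the median was 0.155, against 0.003 over all genes. The effects of the experiment, of the day and of any batch cannot be told apart in this design.

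Ratios between related kinases were taken within each library, which removes the scaling between libraries. A change of a ratio between libraries does not depend on gene length, whereas its level does, so only changes are read. The log2 ratio of MAPK13 to MAPK14 went from −6.89 ± 0.25 in experiment 1 to −4.82 ± 0.33 in experiment 2 (SD, n = 4 each), a difference of 2.08 with no overlap. The ratios of ARAF to BRAF, MAPK8 to MAPK9 and MAPK12 to MAPK14 overlapped between experiments.

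Between genotypes, 1 of the 4 ratios did not overlap. The log2 ratio of MAPK12 to MAPK14 was higher in knockout, at −1.03 ± 0.22 against −1.52 ± 0.31 in control libraries (SD, n = 4 each). It was −1.23, −1.14, −1.04 and −0.72 in knockout and −1.45, −1.43, −1.24 and −1.97 in control libraries, and the highest control was close to the lowest knockout. The log2 ratio of ARAF to BRAF was 3.75 ± 0.12 in knockout and 3.70 ± 0.34 in control libraries, and that of MAPK8 to MAPK9 was 0.84 ± 0.23 and 0.65 ± 0.17. Both overlapped between genotypes, as did the ratio of MAPK13 to MAPK14. The ratios were not tested, and no background share of separated ratios over other gene pairs was taken. MAPK14 alone also separated the genotypes, and MAPK12 did so within each experiment. The ratio of MAPK12 to MAPK14 restates those values.

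**Figure D3:**
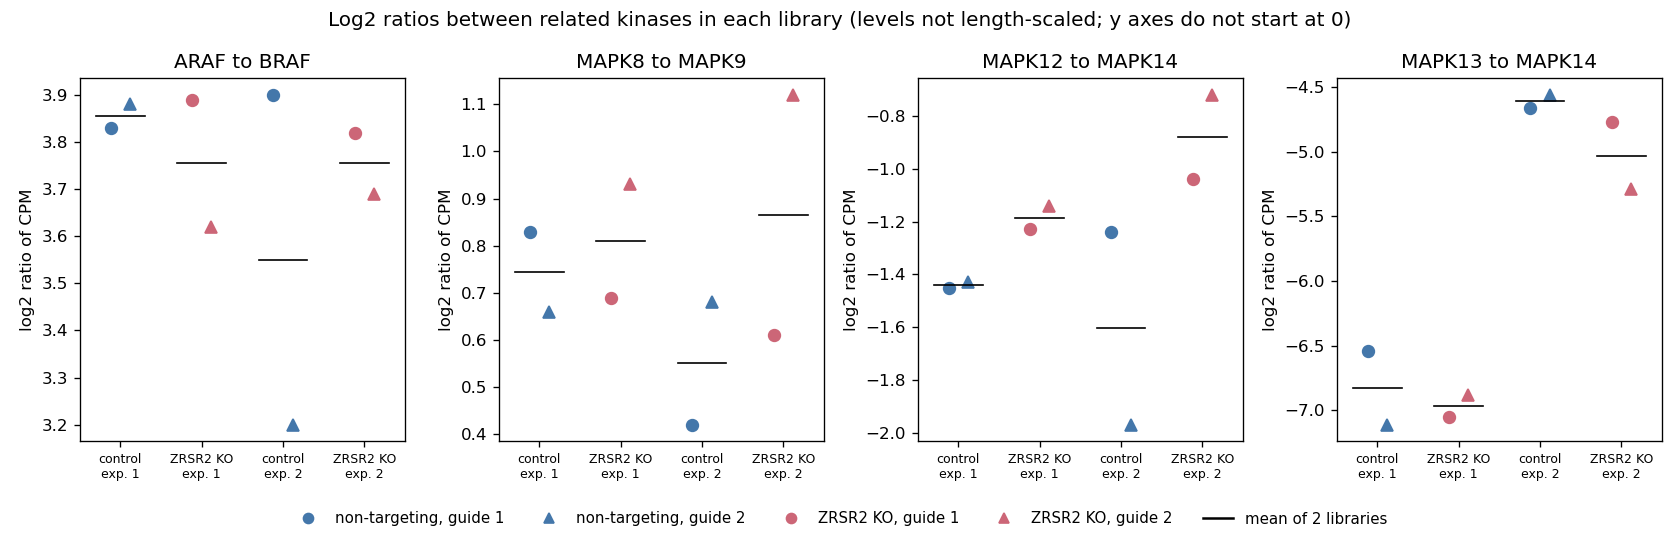
Log2 ratio of CPM between related kinases (y axis, not starting at 0) in every library, by genotype and experiment (x axis). Circles are guide 1 and triangles guide 2 libraries, and bars are means of 2 libraries. MAPK12 to MAPK14 is higher in every knockout library than in every control library, and MAPK13 to MAPK14 is higher in every library of experiment 2.

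Levels between genes can be compared per length alone. Per kilobase of the median coding transcript in GENCODE 29, the mean CPM over 8 libraries was 96.0 for MAPK14, 55.2 for MAPK3, 53.2 for ARAF and 34.0 for MAPK12. It was 4.47 for MAPK9, 4.35 for MAPK8, 3.87 for BRAF and 1.44 for MAPK13. The libraries of MAPK3 (37.2 to 80.4 CPM per kilobase) overlapped those of ARAF (48.5 to 57.6) and of MAPK12 (23.5 to 43.7). MAPK9, MAPK8 and BRAF also overlapped. The order depends on the transcript length: by the longest coding transcript ARAF came first at 52.2 and MAPK14 was at 30.6, and MAPK13 was last by the shortest, the median and the longest.

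The rest of the cascade was described from lists of the kinases' relatives, activators and targets. In knockout against non-targeting, edgeR called 0 genes in each of the 7 lists. Of 9 other RAF and MAP kinases, 4 were called higher and 1 lower in experiment 2. MAPK11 (p38 beta, the neighbour of MAPK12 on chromosome 22) fell from 20.6 ± 2.58 to 13.5 ± 2.95 CPM (SD, n = 4 each), a log2 fold change of −0.62. NLK, an atypical MAP kinase, rose by a log2 fold change of 0.25. MAPK10 (JNK3) was called higher (edgeR adjusted p 0.00353) on levels of 0.311 ± 0.0704 and 0.881 ± 0.329 CPM.

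Of 7 MAP2K kinases, 3 were called higher and 1 lower in experiment 2. MAP2K5, the activator of ERK5, rose by 0.46, MAP2K4, an activator of JNK, rose by 0.30, and MAP2K3, an activator of p38, had a log2 fold change of −0.38. Of 18 MAP3K kinases, 6 were called higher and 3 lower, led by MAP3K9 at 1.22 and MAP3K11 at −0.58, both mixed-lineage kinases. Next were MAP3K10 and MAP3K8, both at 0.46, and ZAK at −0.28. Of 23 RAS and RAF regulators and scaffolds tested, 7 were called higher and 5 lower. RRAS, a RAS relative, was at 1.02, KSR1, a scaffold for RAF and MAP2K, at 0.58, HRAS at −0.93 and the RAS activator SOS1 at −0.46. All these values are log2 fold changes, and the share of calls in all genes was 58.2%.

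Downstream, 2 of 10 MAP kinase phosphatases were called higher and 3 lower in experiment 2. DUSP5, a nuclear ERK phosphatase, fell from 20.9 ± 1.35 to 6.83 ± 0.607 CPM (SD, n = 4 each), a log2 fold change of −1.62, while MAPK3 rose. DUSP7, a cytoplasmic ERK phosphatase, had −1.09, and DUSP16, a JNK and p38 phosphatase, had 1.13. Of 18 MAP kinase substrates tested, 5 were called higher and 9 lower. MKNK1, a kinase activated by ERK and p38, was at 0.66 and the transcription factor ATF7 at 0.59, while the ribosomal S6 kinases RPS6KA1 and RPS6KA5 were both at −0.76. Of 9 minor spliceosome proteins, 2 were called higher, ZCRB1 at 0.44 and RNPC3 at 0.28, and 2 lower, SNRNP25 at −0.60 and SNRNP48 at −0.28. These lists thus held calls in both directions in experiment 2, as the set of all genes did.

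**Figure D4:**
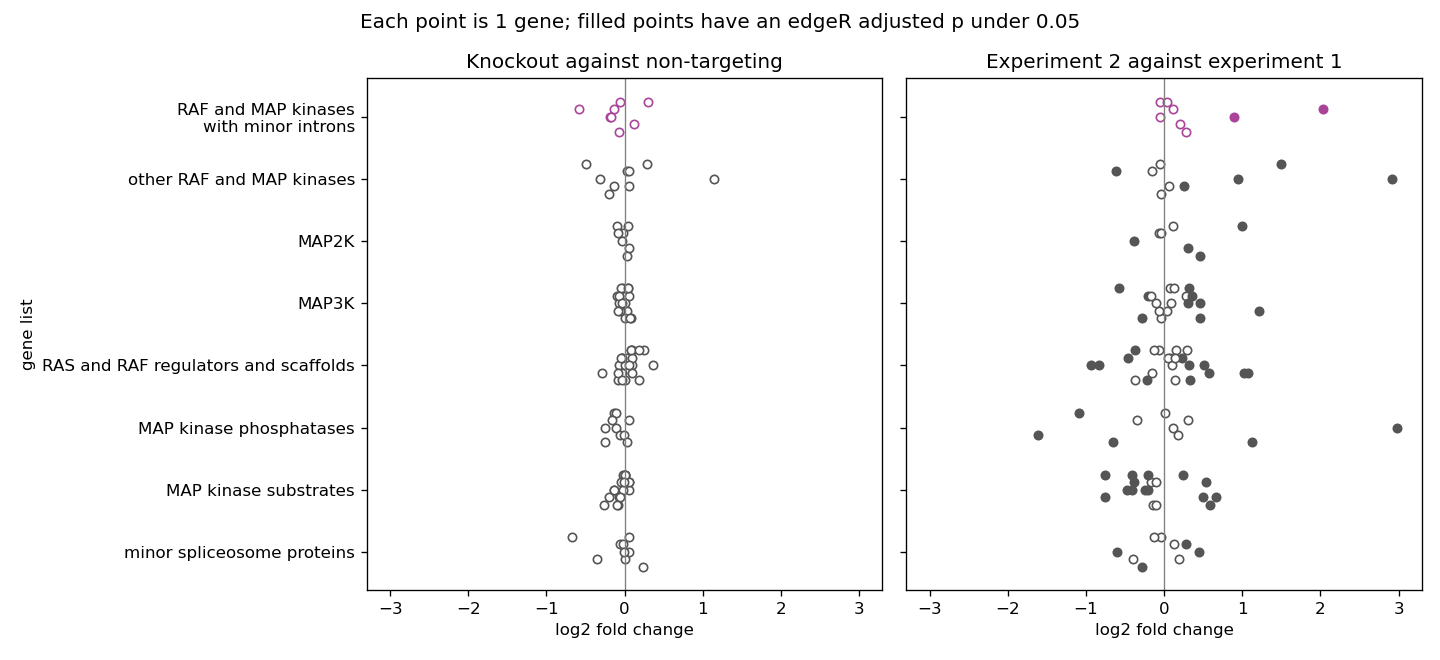
Log2 fold changes (x axis) of single genes (points) in the kinase set and in 7 lists of the cascade and the minor spliceosome (rows), for knockout against non-targeting and for experiment 2 against experiment 1. Filled points had an edgeR adjusted p under 0.05: no gene in the left panel, and in the right panel MAPK3 and MAPK13 in the kinase set, with calls in both directions in each other list.

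Pairs of kinases differed in how they moved across libraries. Over the 8 libraries as they are, the Pearson correlation of log2 CPM was 0.95 between MAPK3 and MAPK13 and 0.72 between MAPK9 and MAPK13, where the difference between experiments enters, and within experiments these were 0.37 and 0.40. After the mean of each experiment was removed, it was −0.90 between MAPK12 and MAPK14 and −0.85 between MAPK12 and MAPK13. It was 0.76 between MAPK13 and MAPK14, 0.75 between MAPK3 and MAPK14 and −0.80 between BRAF and MAPK12. The values after removal of the experiment means are the strongest of all pairs in the set, and the difference between genotypes was not removed. The control with guide 2 of experiment 2 held the lowest MAPK12 (38.0 CPM) and the highest BRAF, MAPK3, MAPK13 and MAPK14. Its weight in the correlations was not tested. These correlations are descriptions over libraries that share guides and experiments. Likeness to other genes was also taken after the mean of each experiment was removed, so it leaves out the difference between experiments. Among the tested genes with a mean of at least 5 CPM, the most alike were CDC73 for BRAF (0.993) and ZHX3 for MAPK3 (0.99). SPR was most like MAPK12 (0.983) and STX6 most like MAPK13 (0.983). The others were GTF3C5 for ARAF (0.981), PLA2G12A for MAPK8 (0.976) and PDZD11 for MAPK9 (0.975), and none is given for MAPK14. With 11013 genes searched for each kinase (11014 for MAPK13) over 8 libraries, such values describe these libraries alone.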

How the data were processed

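The authors deposited 1 table of expected counts for each gene symbol, made with RSEM going by the table's name. The submitters' processing notes name cutadapt 1.11, RSEM 1.2.30 and the build hg19; the aligner, annotation and use of strand are not given in the sources used here. RSEM divides ambiguous reads by probability, so counts of near copies (ARAFP1, ARAFP2, ARAFP3 and BRAFP1 exist) and of overlapping genes are uncertain. Besides the overlaps given with ARAF, BRAF and MAPK12, AC104115.2 overlaps MAPK9 and Z95152.1 overlaps MAPK14, both on the opposite strand. All deposited expected counts were whole, and rounding altered none. Library numbers in the titles tied columns to samples. Per the labels' protocols, libraries were made from total RNA with a Kapa messenger RNA kit.

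Low counts were removed by filterByExpr in edgeR, with genotype as the group, leaving 14898 genes that hold 99.966% or more of each library's counts. Library sizes were scaled by TMM, also for CPM. A floor of 3 counts corresponds to 0.0419 to 0.0964 CPM before that scaling, for counting error only. Tests were quasi-likelihood F tests in edgeR, adjusted by Benjamini-Hochberg across the tested genes, with calls at 0.05; all adjusted p-values are from it unless DESeq2 is named. Genotype was the sole term for the knockout comparison. Experiments were compared in a fit of genotype by experiment, and guides in a fit of 3 groups. Standard errors and 95% intervals follow from the F statistic, and intervals are not adjusted for the number of genes. Fits were tested on simulated data. Alternatives were the experiment as a block, DESeq2, its size factors, other count filters and leaving out libraries.

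Pairing was checked by the correlation of deviations from the genotype means. Knockout and control libraries correlated at 0.678 to 0.846 within an experiment (8 pairs) and at −0.816 to −0.709 across experiments (8 pairs). By this check the experiment number, taken from the titles, pairs the libraries. The main fits of knockout and of guides nevertheless have no block, so their intervals include the spread between experiments, and the block fits are given beside them: adding the block lowered edgeR's common biological coefficient of variation from 0.29 to 0.108.

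All 8 kinases are named, with ZRSR2, close relatives and, per list and direction, up to 2 genes of largest change between experiments with a mean of at least 5 CPM. MAP3K10 and MAP3K8 were equal at the precision printed, so both are named. HDAC10 and the single markers were named after their values were seen. Some relatives, markers and intron sequences are not reported here. The members and lists were chosen with earlier results of these data known. Likeness to each kinase was searched among genes of at least 5 CPM, on log2 CPM with each experiment's mean removed. The gene of highest correlation is given for 7 kinases. Gene positions and introns are from GENCODE 29 on GRCh38, which is not the build of the counts, and were joined by symbol alone. R 4.3.3, edgeR 4.0.16, DESeq2 1.42.0, Python 3.11.15 and matplotlib 3.10.9 were used. The design lists another guide against ZRSR2, not analysed here.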

Additional observations from a re-analysis of the deposited data

Results flagged for a closer look

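Single libraries that stood apart were looked for in 32 groups of 4 libraries (8 kinases by genotype and by experiment). The gap to the nearest library was compared with the whole range of the group by Dixon's criterion. Such a flag came up 3 times, where chance would give about 1.6 if the groups were independent. They are not, since each library lies in a genotype group and in an experiment group. Both flags of BRAF are the same value, and the genotype groups mix the experiments. The numbers therefore cannot be compared.

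BRAF was at 12.97 CPM in non-targeting guide 2 of experiment 2, which stood apart both from the other controls (9.39 to 9.55 CPM) and from the other libraries of experiment 2 (9.10 to 9.70 CPM). The same library held the lowest value of ARAF (119.1 CPM) and of MAPK12 (38.0 CPM) and the highest of MAPK3, MAPK13 and MAPK14. MAPK9 was at 18.52 CPM in knockout guide 1 of experiment 2, while the other knockout libraries were at 12.8 to 13.4 CPM and the control with guide 1 of the same experiment was at 17.6 CPM.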

How the results depend on the processing

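Alternatives gave 396 values for 27 results, and 374 of them had the same direction and the same call as reported, or a similar count. In knockout against non-targeting the number of kinases called was 0 in every alternative run. The number of genes called was 0 in edgeR with all libraries and 0 in each fit with genotype alone that left out 1. It was 4 with DESeq2 and 31 with DESeq2 and the block. With the replicate block, a fit chosen after seeing the data called 12 genes without non-targeting replicate 3 and 1 without knockout replicate 3. Experiment 1 gave replicates 1 and 2, experiment 2 gave replicates 3 and 4, with guide 1 before guide 2 in each. The replicate block changed no call of a kinase in knockout against non-targeting or in the guide comparisons. ZRSR2 passed the threshold with DESeq2 and the block, at −0.67 (adjusted p 5.38e-04), where the edgeR fits, with and without the block and a library, gave adjusted p-values of 0.153 to 1 and DESeq2 with genotype alone gave 0.103.

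Some small differences changed sign. For knockout, without non-targeting replicate 4, BRAF was 0.01 (0.02 with the block) and MAPK3 0.01 (−0.12 with the block). MAPK9 was 0.02 without non-targeting replicate 3 and, with the block, 0.04 without knockout replicate 4. Over the fits with genotype alone and without 1 library BRAF ranged from −0.17 to 0.01, MAPK3 from −0.39 to 0.01 and MAPK9 from −0.21 to 0.02. MAPK14 ranged from −0.21 to −0.14, MAPK12 from 0.21 to 0.38 and MAPK13 from −1.08 (without knockout replicate 3) to −0.13 (without non-targeting replicate 4). With the block and without 1 library, MAPK12 ranged from 0.18 to 0.39, MAPK13 from −0.61 to −0.33 and MAPK14 from −0.21 to −0.13. In those block fits MAPK3 ranged from −0.20 to −0.10.

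Between experiments, DESeq2 called 4 of 8 kinases, adding MAPK8 (0.20, adjusted p 0.0393) and MAPK9 (0.28, adjusted p 0.042). In this comparison edgeR called 58.2% of all genes tested, and the share with DESeq2 is not reported here. Fits without 1 library called 2 to 3 kinases and 7178 to 9193 genes, with MAPK3 at 0.82 to 0.95 and MAPK13 at 1.87 to 2.16. In such a fit 1 arm holds a single library, which is assumed to vary like the others. ARAF was 0.01 and BRAF −0.01 without non-targeting replicate 4, with ranges of −0.11 to 0.01 and −0.01 to 0.22. MAPK12 was −0.12 without non-targeting replicate 3 and −0.03 without knockout replicate 4, ranging to 0.17. MAPK8 also passed in the additive fit, with at least 10 counts in every library (adjusted p 0.0478) and without non-targeting replicate 3. MAPK9 also passed with no filter on counts (adjusted p 0.0335) and without knockout replicate 4. The cause of these changes was not tested. Depth limits MAPK13 most, with as few as 34 counts in a library.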
